A study of Homo sapiens with 18 samples.

Results

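The genes described here encode the proteins of the cytosolic ribosome. A gene was taken when an array row carried exactly 1 gene symbol made of RPL or RPS, digits and at most 1 of a few endings, with the stalk and RPSA symbols added and pseudogenes and S6 kinases left out. This gave 59 rows and 51 genes, 30 of the large subunit and 21 of the small. Of these, 49 were among the 16111 genes tested, 29 large and 20 small. RPL10L, a retrogene best known from testis, lay above the array median on 1 of 18 arrays and was not tested, and its log2 level ran from 1.56 to 2.58. The Y-linked RPS4Y1 also fell below the filter. RefSeq lists 82 genes that fit the symbol rule, so 31 are outside the set: 21 appear only in rows with several symbols, such as RPL23A with a small nucleolar RNA, and the other 10 were not analysed here.

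The cells were HEK293, a human embryonic kidney line, and in every group, mock included, they overexpressed murine TLR5, through which cells sense flagellin. The sources used here give neither the promoter of the transgene nor whether the line is 1 clone. Lysine and arginine in the media were light, medium or heavy isotope forms, and cells were used at passage 7. Which array had which isotope is not given, so isotopes and groups cannot be told apart. Mock cells received no flagellin, EcN cells received isolated flagellin of the probiotic E. coli Nissle, and ST cells received isolated flagellin of Salmonella Typhimurium SL1344, each flagellin at an amount matched to a multiplicity of infection of 10. RNA was taken at 60 and 120 min, with 3 arrays lettered A, B and C in each of the 6 groups. The labels call the letters biological replicates without saying whether cultures were separate, so p-values measure the spread between these arrays, which may be technical. For the 6 ST arrays the description field names mock, while title, source and treatment name ST, and the titles were followed.

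Ribosomal proteins are made in near-equal numbers, and their messenger RNAs are among the most abundant and stable of a growing cell. Most of these messages begin with a terminal oligopyrimidine (TOP) tract, a cytosine followed by a run of pyrimidines, through which the kinase mTORC1 and the protein LARP1 control how strongly they are translated. RPS6 is the substrate of the S6 kinases downstream of mTORC1 and of the RSK kinases downstream of ERK, and its phosphorylation is a common readout of both. An array measures the amount of message and shows neither translation nor phosphorylation.

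The sequences around the transcription start show where the TOP tract lies in some genes named below, all of those printed but RPS26 having one. Each is 50 bases from RefSeq on GRCh38.p14, from 30 bases before the annotated start to 20 after it, 5′ to 3′ on the gene's strand, with the TOP run in capitals. The first 4 are called genes, and RPS26 and RPL29 had the lowest adjusted p at 120 min.
RPS6, chr9:19380217-19380266, minus strand: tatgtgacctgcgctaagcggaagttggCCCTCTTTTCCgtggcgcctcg
RPL24, chr3:101686699-101686748, minus strand: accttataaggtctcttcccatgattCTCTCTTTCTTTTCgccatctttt
RPS21, chr20:62387073-62387122, plus strand: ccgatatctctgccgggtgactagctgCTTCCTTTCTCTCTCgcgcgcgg
RPL12, chr9:127451387-127451436, minus strand: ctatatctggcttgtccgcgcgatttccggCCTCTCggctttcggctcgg
RPL29, chr3:51995876-51995925, minus strand: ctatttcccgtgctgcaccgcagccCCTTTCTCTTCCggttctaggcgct
RPS26, chr12:56041888-56041937, plus strand: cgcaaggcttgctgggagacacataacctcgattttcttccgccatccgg
RPS26 has no capitals because no such run begins within 5 bases of its annotated start. RPL12 has the shortest run of those shown, 6 bases, and RPS21 the longest, 15 bases.

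The promoter table held 42 of the 49 tested genes, in 49 windows of 250 bases before to 50 bases after the start. RPL3L, RPL7, RPL8, RPL30, RPL37, RPL39L and RPS15A have no entry there. A TOP start, here a cytosine followed by at least 4 pyrimidines and beginning within 5 bases of the start on the gene's strand, was present in 35 of the 42 genes. The genes without one were RPL6, RPL27, RPS4X, RPS15, RPS26, RPS27L and RPS29. By window the share was 79.6%, against 21.1% of all 35116 windows of the table. Of the motifs searched on both strands, CCGGAAG, the core bound by ETS factors, occurred in 36.7% of the windows against 10.3% of all. The pyrimidine runs CTTTCC and CTTTTC, which can lie within a TOP tract, occurred in 40.8% and 34.7% against 26.3% and 21.0%. AAGATGGCG, the YY1 motif, occurred in 6.1% against 1.7%, and TATAAA, the TATA box, in 4.1% against 11.5%. These are matches of letters and were not set against any measured binding.

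Values are RMA log2 intensities, and each gene's level is compared only with its own level on other arrays, since different probes differ in brightness. Deposited array medians over all rows ran from 2.27 to 2.32. Of the tested genes, 48 lay above the median on all 18 arrays, the exception being RPL3L, the heart and skeletal muscle counterpart of RPL3, which did so on 12. As a check of the cell line, all 7 HEK293 markers were tested and 6 lay above the median on every array. Of 5 leukocyte markers 4 had a row and 1 was tested, which lay above the median on every array. PTPRC and ITGAM lay above it on no array. Of the 4 fibroblast markers 3 had a row and 2 were tested, 1 of which lay above the median on every array. DCN lay above it on none. All 4 intestinal epithelium markers were tested, and 2 of them lay above the median on every array. The level of NFKBIA, an NF-kB target, separated 5 arrays (the C arrays of both EcN groups and both ST groups, and mock 120 min A) at 10.15 to 10.85 from the other 13 at 8.09 to 8.82, and counts are also given from fits without the 6 C arrays, and without these and mock 120 min A. The second leaves out all 5 of these arrays and the 2 mock C arrays as well, and it leaves 1 array in mock 120 min, which is then assumed to vary like the other groups. In RNA from a culture, fewer expressing cells and less message per cell cannot be told apart.

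Array by array, the levels of most of these messages lay close together. The median residual SD between arrays of a group was 0.150 log2 units over the 49 genes and 0.180 over all genes. The 5 with the smallest SD were RPL22 (0.0645), RPL36 (0.0718), RPS19 (0.0725), RPL27 (0.0865) and RPL8 (0.0906). RPS19, a small subunit protein known for its mutations in Diamond-Blackfan anaemia, stayed between 11.16 and 11.45 on all 18 arrays, and RPL27 between 9.31 and 9.62. The 5 with the largest SD were RPL32 (0.340), RPS26 (0.339), the stalk protein RPLP1 (0.325), RPS25 (0.272) and RPS15A (0.256). RPLP1 ran from 6.10 on ST 120 min A to 7.02 on ST 60 min C, and its group means stayed between 6.47 and 6.77.

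The levels also varied together from array to array. After the group means were taken out, the mean correlation between pairs of them over the 18 arrays was 0.161, against 0.005 between all genes tested, and 68.9% of the 1176 pairs lay above 0. The highest pair was RPS3 with RPL35A at 0.88 and the lowest RPL26 with RPS14 at -0.79. These correlations share the same 18 arrays and their normalization and are given as a description.

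**Figure D1:**
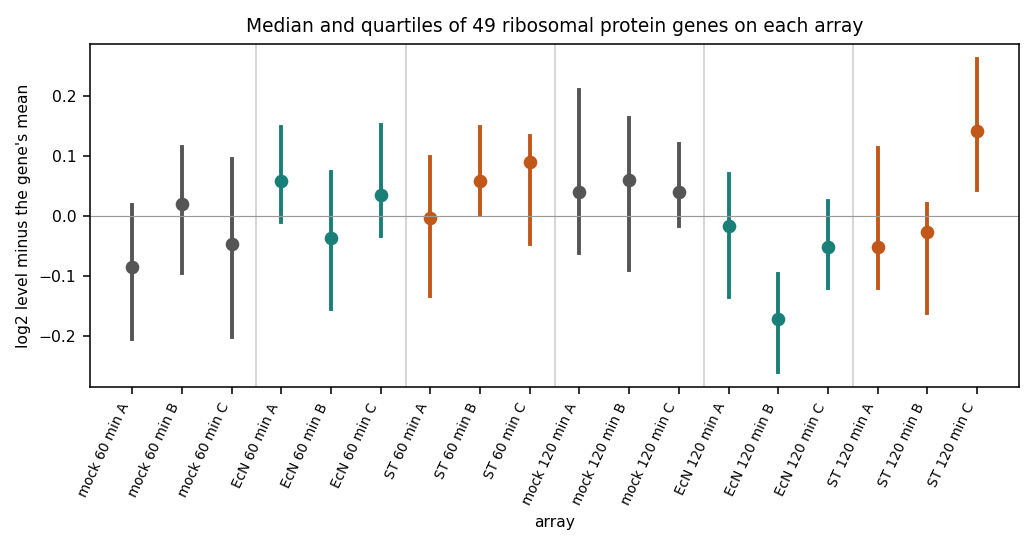
For each of the 18 arrays (horizontal axis), the point is the median over 49 ribosomal protein genes of the log2 level minus the gene's mean over all arrays, and the bar spans the quartiles; colours mark mock, EcN and ST. EcN 120 min B is lowest at -0.171 and ST 120 min C highest at 0.142.

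A pair of arrays stood at the ends of this shared movement, as the plot of medians by array shows. On EcN 120 min B the median gene had a deviation of -0.171 from its own mean, 7 of 49 were above it, and 10 genes had their lowest level of all there. On ST 120 min C the median lay 0.142 above, 42 of 49 genes were above their mean, and 11 had their highest level there. Mock 60 min A also held the lowest level of 10 genes, with a median of -0.084. By group, the mean of the 3 array medians was -0.036 ± 0.053 (SD, n = 3) in mock 60 min, 0.019 ± 0.049 in EcN 60 min, 0.049 ± 0.048 in ST 60 min, 0.048 ± 0.011 in mock 120 min, -0.080 ± 0.081 in EcN 120 min and 0.021 ± 0.105 in ST 120 min. At 120 min all 3 EcN array medians lay below all 3 mock ones, while at 60 min the array medians of every group overlapped those of mock.

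The first comparison asks which ribosomal protein messages differ after 60 min of EcN flagellin. 5 of the 49 genes rose and none fell (limma, adjusted p under 0.05), beside 6.45% of all genes called. Those that rose were RPS6, RPL24, RPS21, RPL37 and RPS15A, by 1.3 to 1.7 fold. Over the 49 genes the median log2 fold change was 0.02, with 27 above 0 and 22 below, and over all genes it was 0.01. In the plot of fold changes the called genes are the 5 highest points of this comparison.

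RPS6 stood at 7.46, 7.52 and 7.36 in mock and at 7.87, 7.74 and 7.87 with EcN flagellin. The groups do not overlap, and the log2 fold change was 0.38 ± 0.10 (SE, n = 3 per group; adjusted p 0.0378). RPL24, a large subunit protein at the face between the subunits, stood at 6.91, 6.86 and 7.16 in mock and at 7.36, 7.41 and 7.38 with EcN flagellin. It rose by 0.41 ± 0.10 (adjusted p 0.0313), and all 3 EcN arrays lay above all 3 mock arrays. The small subunit protein RPS21 stood at 5.74, 5.86 and 6.04 and then at 6.20, 6.42 and 6.23, a rise of 0.40 ± 0.11 (adjusted p 0.0440). These are 3 of the genes whose TOP tracts are printed above.

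The remaining genes rose more and varied more. RPL37, a zinc-binding protein of the large subunit, stood at 6.0, 6.20 and 6.41 in mock and 6.94, 6.96 and 6.76 with EcN flagellin, a change of 0.68 ± 0.18 (adjusted p 0.0404). A further row, which joins RPL37 with SNORD72, had 0.15 ± 0.18 (adjusted p 0.659 over the rows with several symbols). RPS15A of the small subunit stood at 6.74, 7.14 and 7.14 against 7.72, 7.84 and 7.65, a change of 0.73 ± 0.19 (adjusted p 0.0362). Mock 60 min A is the lowest of the mock arrays in both genes. Among genes not called, the lowest values were those of RPL30 at -0.40 ± 0.14 (adjusted p 0.0821), RPS26 at -0.38 ± 0.25 and RPS14 at -0.30 ± 0.12.

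The 2 groups did not overlap for 13 of the 49 genes, 11 higher and 2 lower with EcN flagellin, which is 26.5% beside 31.9% of all genes. No call survived the loss of any 1 array of the groups compared: without mock 60 min A, B or C, or EcN 60 min A, B or C, the count was 0, and it was 3 without EcN 120 min A, ST 60 min B or ST 120 min A, which bear on it through the shared spread. Without the C arrays the count was also 0, and without these and mock 120 min A, RPL24 and RPL37 were called, at 0.50 and 0.85.

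**Figure D2:**
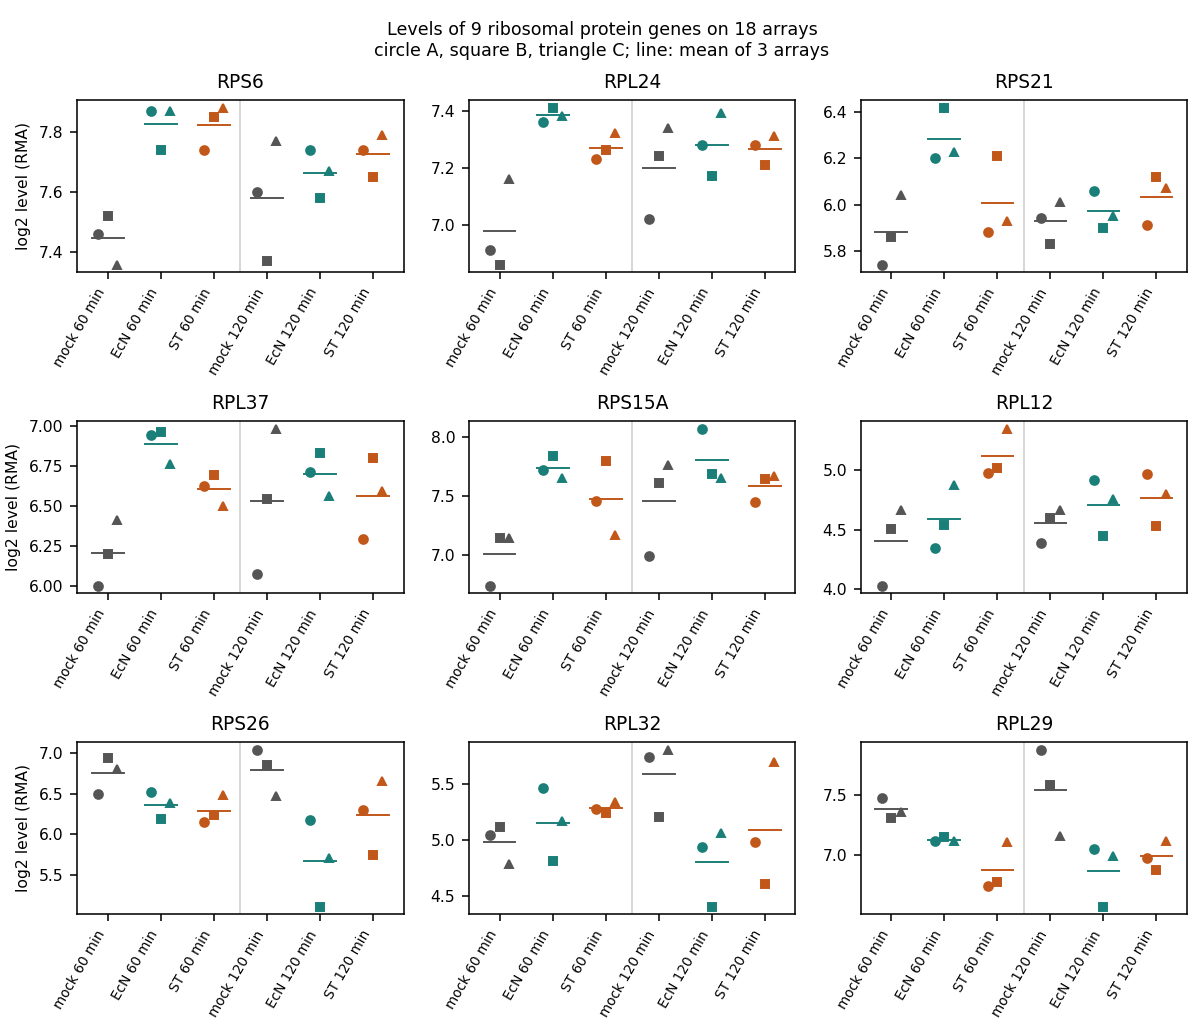
RMA log2 level (vertical axis, its own range per panel) of 9 ribosomal protein genes in the 6 groups, with 1 symbol per array (circle A, square B, triangle C) and a line at the mean of 3. RPS6, RPL24, RPS21, RPL37 and RPS15A are higher on all 3 EcN 60 min arrays than on the mock arrays, and RPS26 is lowest, at 5.11, on EcN 120 min B.

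With ST flagellin at 60 min, 2 of the 49 genes rose and none fell, beside 5.26% of all genes called. They were RPL12 and again RPS6. The median log2 fold change was 0.04, with 29 above 0 and 20 below, and over all genes it was 0.00. EcN and ST share the same 3 mock arrays, so their values against mock are not independent.

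RPL12, a protein at the base of the ribosomal stalk, stood at 4.03, 4.51 and 4.67 in mock and at 4.98, 5.02 and 5.35 with ST flagellin. The log2 fold change was 0.71 ± 0.18 (adjusted p 0.0375), or 1.63 fold. A further row, which joins RPL12 with 2 of its pseudogenes and with NBEAL1, had -0.03 ± 0.12 in the same comparison (adjusted p 0.930 over the rows with several symbols). With EcN flagellin at 60 min the same gene stood at 4.35, 4.54 and 4.88, within the range of the mock arrays except for EcN C, and its difference from mock was 0.18 ± 0.18 (adjusted p 0.575). The direct difference of ST over EcN was 0.52 ± 0.18 (95% interval 0.13 to 0.91, adjusted p 0.426), which did not pass the test.

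RPS6 stood at 7.74, 7.85 and 7.88 with ST flagellin, a rise of 0.38 ± 0.10 over mock (adjusted p 0.0430). Its level with ST and with EcN flagellin differed by 0.00 on the log2 scale, with a 95% interval of -0.22 to 0.21. RPS25, a small subunit protein used in internal ribosome entry, stood at 5.61, 5.80 and 4.91 in mock and 6.06, 6.15 and 6.12 with ST flagellin, a difference of 0.67 ± 0.20 (adjusted p 0.0630). Mock 60 min C is the lowest array for this gene, and without it the difference was 0.40 (adjusted p 0.251). RPS15A had 0.47 ± 0.19 (adjusted p 0.155), and the lowest values were RPL29 at -0.51 ± 0.16 (adjusted p 0.0772), RPS26 at -0.46 ± 0.25 and RPL35A at -0.36 ± 0.19.

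ST and mock arrays at 60 min did not overlap for 17 genes higher and 5 lower, 44.9% beside 30.2% of all genes. At an unadjusted p under 0.05 there were 14 higher and 2 lower, which makes 32.7% of the 49, beside 22.5% of all genes. Without any 1 of the 6 arrays compared no gene was called, and without EcN 60 min A, B or C, EcN 120 min A, B or C, or ST 120 min A or B only RPL12 was. A fit of these 2 groups alone called none, as did the fit without the C arrays and the fit without these and mock 120 min A. With RPS25 and RPL22 added there were 4 called genes under the stricter filter on dim rows, and with RPS25 and RPL29 added, the latter lower, 4 under limma's trend and robust settings.

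**Figure D3:**
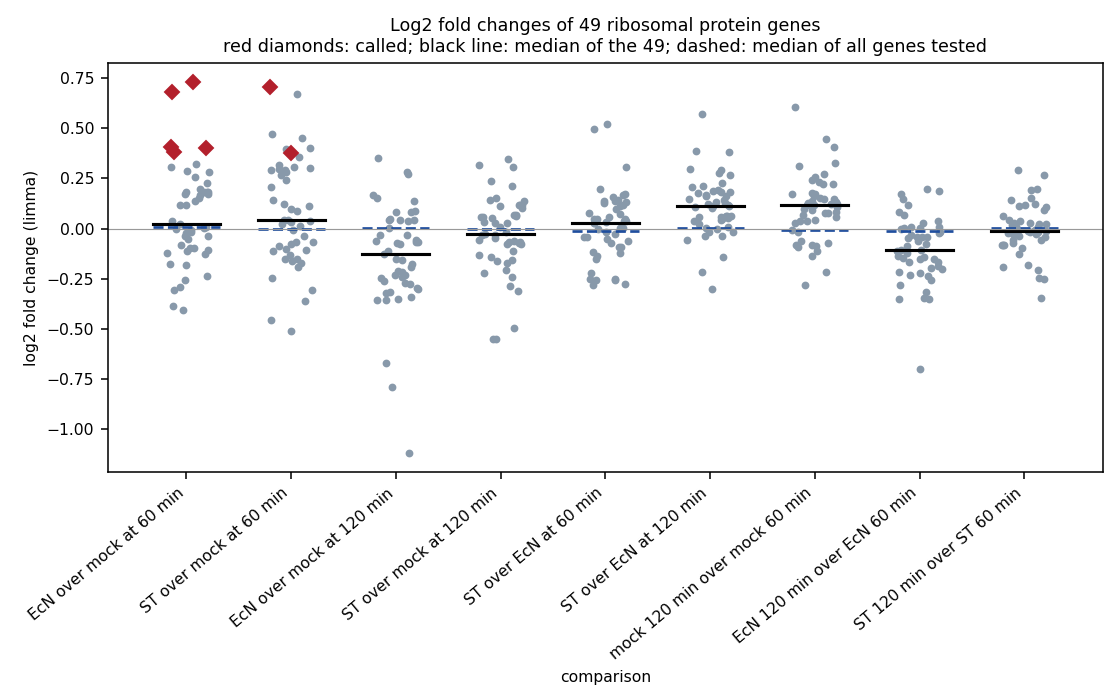
Log2 fold changes (vertical axis, limma) of 49 ribosomal protein genes in 9 comparisons (horizontal axis), each point a gene, with called genes as red diamonds, the median of the 49 as a black line and that of all genes as a dashed line. The 5 and 2 called genes are at 60 min over mock, and the median is -0.13 for EcN over mock at 120 min.

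At 120 min of EcN flagellin no ribosomal protein gene was called by limma, beside 0.0621% of all genes. There 14 genes were lower, and RPL22 alone was higher, at an unadjusted p under 0.05, together 30.6% of the 49 beside 16.5% of all genes. The median log2 fold change was -0.13, with 34 of 49 below 0, and over all genes it was 0.00. The medians were -0.08 for the large subunit and -0.20 for the small. The EcN and mock arrays did not overlap for 1 gene higher and 17 lower, 36.7% beside 17.6% of all genes.

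RPS26, which lines the channel where messenger RNA leaves the small subunit, had the lowest value. It stood at 7.04, 6.85 and 6.47 in mock and 6.18, 5.11 and 5.71 with EcN flagellin. Every EcN array was below every mock array, and EcN 120 min B was the lowest of all 18. The difference was -1.12 ± 0.25 (2.17 fold lower, 95% interval -1.64 to -0.59, adjusted p 0.0756).

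RPL32 stood at 5.75, 5.21 and 5.81 in mock and 4.94, 4.40 and 5.06 with EcN flagellin, a difference of -0.79 ± 0.25 (adjusted p 0.134). RPL29, a small basic protein of the large subunit, stood at 7.88, 7.59 and 7.16 in mock and 7.05, 6.57 and 6.99 with EcN flagellin, a difference of -0.67 ± 0.16 (adjusted p 0.0812). Both genes were lower on every EcN array than on any mock array, and both had their lowest level on EcN 120 min B. At the other end RPS15A had 0.35 ± 0.19, RPL7 0.28 ± 0.19 and RPL22 0.27 ± 0.08 (adjusted p 0.123).

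RPL22, a large subunit protein that cells can spare and whose paralogue is RPL22L1, had the narrowest spread of all. It stood at 2.95, 2.92 and 2.97 in mock 120 min, at 3.20, 3.20 and 3.26 with EcN flagellin, and at 2.90, 2.83 and 3.02 with ST flagellin. The EcN arrays were the highest of all 18 for this gene, but its level lay close to the array median of 2.27 to 2.32. At 120 min ST over EcN was -0.30 ± 0.08 (adjusted p 0.220), the smallest adjusted p of the 49 in that comparison.

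The calls at 120 min depended on which arrays entered. The share of all genes called in the fits that follow is not given. Without mock 120 min C, RPL29 at -0.86, RPL30 at -0.54 and RPS26 at -1.28 were called lower with EcN flagellin (adjusted p 0.00739, 0.0134 and 0.0148). The trend and robust settings called RPL29 and RPS26, and the fit without all C arrays called RPL29. The median stayed between -0.18 and -0.09 whichever array was left out, and was -0.16 without the C arrays and mock 120 min A. None of the 8 housekeeping genes tested was called, but their median was -0.29, and their summed level ran from 10.61 to 10.80 in mock 120 min and from 10.32 to 10.54 in EcN 120 min on the log2 scale, with no overlap. The HEK293 marker list had a median of -0.30. Their part in the result was not tested.

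**Figure D4:**
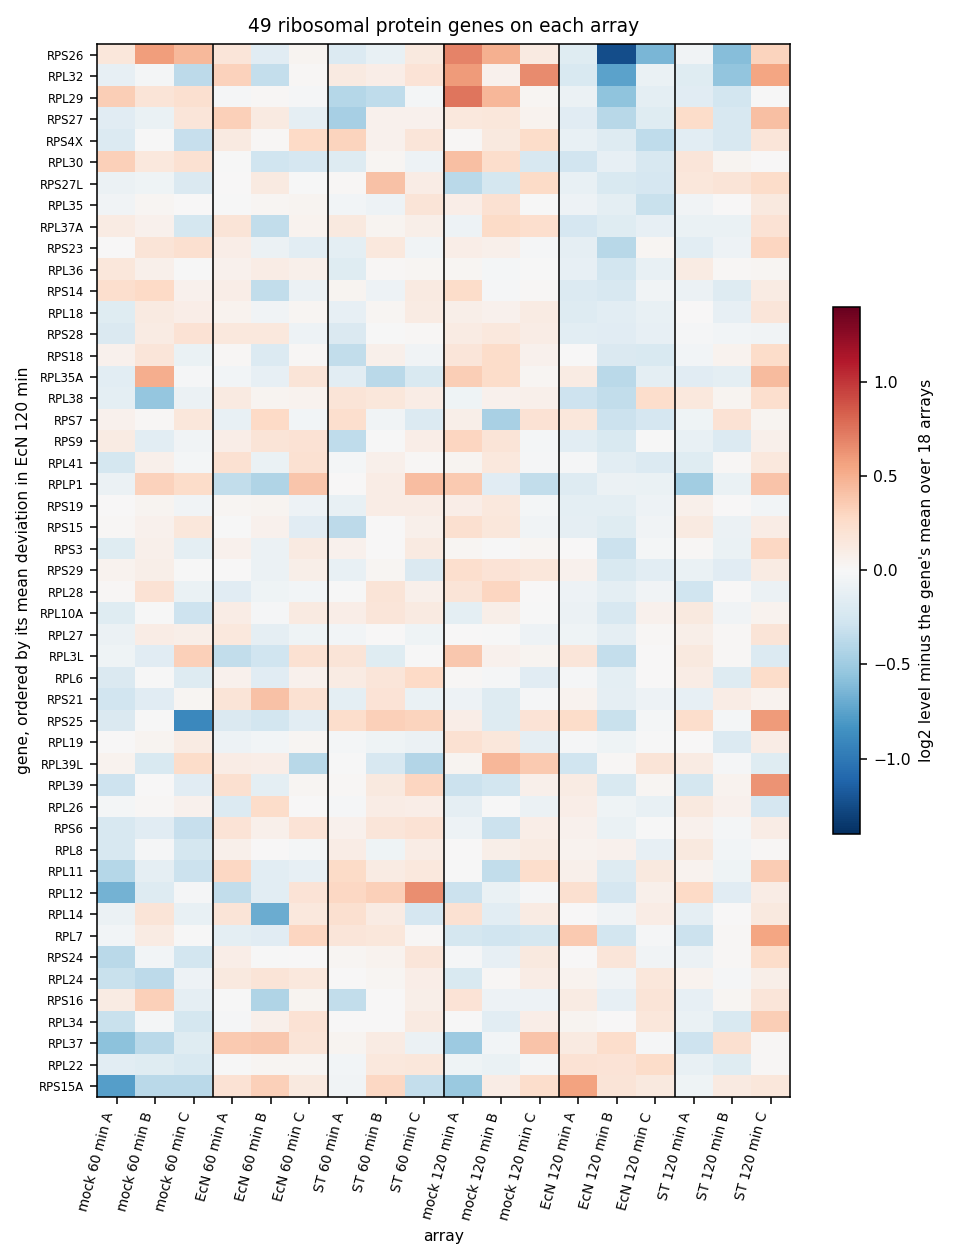
Log2 level minus the gene's mean over all arrays (colour, red above and blue below) for 49 ribosomal protein genes (rows, ordered by their mean deviation in EcN 120 min) on 18 arrays (columns, black lines between groups). EcN 120 min B is below the mean for 42 of 49 genes, and RPS26 has the widest range, 1.94 log2 units.

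With ST flagellin at 120 min limma called no gene either, beside 0.559% of all genes, and at an unadjusted p under 0.05 there were 1 higher and 4 lower, 10.2% of the 49 beside 17.6% of all genes. The median was -0.03, with 23 above 0 and 26 below, and over all genes it was 0.00. RPL29 stood at 6.98, 6.88 and 7.12, below all 3 mock arrays, with a difference of -0.55 ± 0.16 (adjusted p 0.107). RPS26 stood at 6.30, 5.75 and 6.66, overlapping mock, with a difference of -0.55 ± 0.25, and RPL32 at 4.98, 4.60 and 5.70 with -0.50 ± 0.25. The highest values were RPL7 at 0.35 ± 0.19, RPS27L at 0.32 ± 0.14 (adjusted p 0.256) and RPL39, which lines the exit tunnel, at 0.31 ± 0.18. The arrays of these groups did not overlap for 1 gene higher and 4 lower, 10.2% beside 16.5% of all genes. Without mock 120 min C, RPL29 at -0.74 was called lower and RPS27L at 0.51 higher, in a fit whose share of all genes called is not given.

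The direct comparison of the flagellins called no gene by limma at either time, in the 49 or elsewhere (0% of all genes). At 60 min the median of ST over EcN was 0.03, and an unadjusted p under 0.05 was reached by 2 higher genes and 1 lower, 6.12% of the 49 beside 9.19% of all genes. The highest were RPL12, RPS25 at 0.50 ± 0.20 and RPLP1 at 0.31 ± 0.24, and the lowest RPS21 at -0.28 ± 0.11, RPL37 at -0.28 ± 0.18 and RPS15A at -0.26 ± 0.19. At 120 min 40 of 49 genes were above 0 and the median was 0.11, and 5 genes, 4 of them higher, had an unadjusted p under 0.05, which is 10.2% beside 11.7% of all genes. The highest were RPS26 at 0.57 ± 0.25, RPS27 at 0.39 ± 0.17 and RPS27L at 0.38 ± 0.14, and besides RPL22 the lowest were RPS15A at -0.22 ± 0.19 and RPL37 at -0.14 ± 0.18. Without ST 120 min C, the array with the highest median deviation, the median was 0.04.

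Between the mock groups of the 2 times limma called no gene (0% of all genes). From 60 to 120 min in mock, the median of the 49 was 0.12 with 37 above 0, against -0.01 over all genes, and the 5 genes with an unadjusted p under 0.05, 10.2% beside 12.1% of all genes, were all higher. The highest were RPL32 at 0.61 ± 0.25, RPS15A at 0.45 ± 0.19 and RPS25 at 0.41 ± 0.20, or 0.14 without mock 60 min C, and the lowest RPL7 at -0.28 ± 0.19, RPLP1 at -0.21 ± 0.24 and RPS7 at -0.13 ± 0.17. The mock groups did not overlap for 6 genes higher and 1 lower, 14.3% beside 12.7% of all genes. RPS15A was called, at 0.68, without mock 120 min A, where the share of all genes called is not given.

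From 60 to 120 min with EcN flagellin the median was -0.11, with 35 of 49 below 0, and of 6 genes with an unadjusted p under 0.05, 12.2% beside 7.95% of all genes, 5 were lower. RPS26 at -0.70 ± 0.25 and RPL32 and RPS4X at -0.35 ± 0.25 and -0.35 ± 0.13 were lowest, and RPL22 at 0.19 ± 0.08, RPS16 at 0.19 ± 0.16 and RPS25 at 0.17 ± 0.20 were highest. With ST flagellin the median was -0.01, with 1 gene lower at an unadjusted p under 0.05 (2.04% beside 4.80% of all genes), and the ends were RPL12 at -0.35 ± 0.18 and RPL35A at 0.29 ± 0.19. limma called no gene in either (0% of all genes in each).

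Whether a flagellin effect differed between the times was tested as an interaction, and by limma no gene passed for either flagellin (0% of all genes in each). The EcN effect was lower at 120 than at 60 min for 40 of 49 genes, with a median change of -0.22 against -0.01 over all genes, and 8 were lower at an unadjusted p under 0.05 (16.3% beside 12% of all genes). For ST the median change was -0.09, with 34 below 0 and 4 lower at an unadjusted p under 0.05 (8.16% beside 10.7% of all genes). The lowest changes of the EcN effect were RPL32 at -0.96 ± 0.35, RPS26 at -0.73 ± 0.35 and RPS4X at -0.66 ± 0.18 (adjusted p 0.211), and the lowest of the ST effect RPL32 at -0.80 ± 0.35 and RPS4X at -0.56 ± 0.18. The mock arrays of both times enter these values. RPS4X, the X-linked partner of RPS4Y1, stood at 7.74, 7.92 and 7.60 in mock 60 min, 8.05, 7.94 and 8.20 in EcN 60 min, and at 7.95, 8.06 and 8.19 in mock 120 min against 7.83, 7.75 and 7.57 in EcN 120 min. EcN lay above mock on all arrays at 60 min and below it on all arrays at 120 min. The EcN difference was 0.31 ± 0.13 at 60 min and -0.35 ± 0.13 at 120 min, and the change between them was called only without mock 120 min A, at -0.72 (adjusted p 0.0456).

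RPS6 itself did not keep its higher level over mock as a called difference. At 120 min it stood at 7.60, 7.37 and 7.77 in mock, 7.74, 7.58 and 7.67 with EcN and 7.74, 7.65 and 7.79 with ST flagellin. The mock range covers both flagellin groups but for ST C. The differences were 0.08 ± 0.10 (95% interval -0.14 to 0.30) and 0.14 ± 0.10 (-0.07 to 0.36).

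The paralogues made for single tissues or conditions were not called. RPL39L, the testis form of RPL39, had its largest difference from mock, -0.32 ± 0.17, with EcN flagellin at 120 min, where RPL39 had 0.14 ± 0.18. RPL3L ranged from 2.03 to 2.75 over all arrays, and RPL3 and RPL10 had no row of their own to set it or RPL10L against. RPS27L, a p53 target, had 0.29 ± 0.14 with ST flagellin at 60 min, where RPS27 had -0.09 ± 0.17. The other row of RPS27 had 0.59 there, so this contrast depends on the row used.

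Some genes had several rows, and these differed in some genes. Of the 7 rows of RPS18, 4 were equal within 0.005, and a row with a mean of 1.83 had a correlation of -0.09 with the first. The row of RPS27 used above had log2 fold changes of 0.14 and -0.09 with EcN and ST flagellin at 60 min, and its other row had 0.55 and 0.59. The correlation between these 2 rows over the 18 arrays was 0.04. For RPS28 the rows correlated at 0.63, and with EcN flagellin at 120 min had -0.26 and -0.58. Ribosomal protein genes have many processed pseudogenes, and which copies a probe detects was not tested.

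The rows that carry a ribosomal protein symbol together with others are described apart, since the signal cannot be given to 1 gene. They number 38 among 1372 such rows tested in a fit of their own. With EcN flagellin at 60 min 4 were higher, beside 3.86% of such rows called, and the medians of the 38 were 0.14 with EcN and 0.14 with ST flagellin, where none was called. With EcN flagellin at 120 min the median was -0.24 and 2 were lower, beside 1.09%. The row of RPL23A with SNORD4A stood at 8.29, 8.02 and 7.89 in mock and 7.56, 7.36 and 7.45 with EcN flagellin, a difference of -0.61 ± 0.12 (limma, adjusted p 0.0412 over those rows). 1 of 5 rows of RPL4 with small nucleolar RNAs was also lower, by -2.04 ± 0.39 (limma, adjusted p 0.0280), from 5.45, 4.17 and 4.42 to 3.11, 2.26 and 2.54. The EcN levels of that row lay close to the array medians of 2.27 to 2.32, and mock A was the highest of its mock arrays. The other 4 RPL4 rows ran from -0.82 to 0.06 and were not called.

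Genes that work with the ribosomal proteins were taken from lists. For the list genes in this and the following paragraphs, how calls change without single arrays is not given. Of 16 genes of mTORC1 and S6 kinase control, all tested, 1 rose and 1 fell with EcN flagellin at 60 min, beside 6.45% of all genes called: RPS6KA2, an RSK kinase, rose by 0.49 ± 0.14 (adjusted p 0.0438), and RPTOR, the scaffold of mTORC1, fell by 0.40 ± 0.11 (adjusted p 0.0440). With ST flagellin at 60 min EIF4EBP2, a repressor of cap-dependent translation, fell by 0.44 ± 0.12 (adjusted p 0.0412), alone of the list, beside 5.26% of all genes. None was called at 120 min. The list medians lay between -0.07 and -0.02 against mock, and those of all genes between 0.00 and 0.01.

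Of 12 chaperones and late assembly factors of ribosomal proteins, 2 rose in at least 1 comparison with mock and none fell: none was called with EcN and 1 with ST flagellin at 60 min, and 1 and 2 at 120 min, beside 6.45%, 5.26%, 0.0621% and 0.559% of all genes. GRWD1, the chaperone of RPL3, rose with ST flagellin by 0.81 ± 0.16 at 60 min and 0.86 ± 0.16 at 120 min (adjusted p 0.0145 and 0.0331). RRS1, which brings RPL5 and RPL11 into the early large subunit, rose at 120 min by 1.16 ± 0.20 with EcN and 0.95 ± 0.20 with ST flagellin (adjusted p 0.0462 and 0.0459). RPL11, which RRS1 serves, was not called.

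The other lists hold further genes of translation. Of 15 translation factors and other TOP messages 10 were tested and none was called by limma in any of the 11 comparisons, and their median was -0.13 with EcN flagellin at 120 min. Of 7 ribosomal proteins outside the symbol rule, 5 were tested and none was called, with a median of -0.23 there. Of 71 mitochondrial ribosomal proteins, which build the separate ribosome of the mitochondrion, 1 rose and 5 fell with EcN flagellin at 60 min, 2 rose and 5 fell with ST flagellin at 60 min, and MRPS23 alone rose with ST flagellin at 120 min, beside 6.45%, 5.26% and 0.559% of all genes called in these comparisons. MRPS23 rose by 0.45 ± 0.12, 0.67 ± 0.12 and 0.55 ± 0.12 in these comparisons, and MRPL46 fell by 0.76 ± 0.16 and 0.68 ± 0.16 at 60 min. Their medians at 60 min were -0.08 in both, beside 0.02 and 0.04 for the cytosolic genes. Beside these groups at 60 min the housekeeping gene B2M rose by 0.53 ± 0.11 with EcN and 0.39 ± 0.11 with ST flagellin, and the HEK293 marker KRT18 by 0.44 ± 0.12 and 0.46 ± 0.12. LGR5 of the intestinal list fell by 0.59 ± 0.16 with EcN flagellin at 60 min.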

How the data were processed

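Transcripts were measured on 18 Affymetrix Human Gene 2.1 ST arrays, from 100 ng of total RNA each. RMA in oligo 1.30.0, per the submitters' processing notes, gave the deposited log2 values, which were used with no further normalization. RMA sets all arrays to 1 distribution, so a change in total RNA per cell is not visible. Of 53617 rows, 23871 had 1 symbol, 1842 several, and 27904 none listed. Symbols were updated through RefSeq (GRCh38.p14), which changed 655. Rows above their array's median on at least 3 of 18 arrays were kept, and the row with the highest mean stood for its gene.

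limma 3.58.1 in R 4.3.3 (lmFit, eBayes) fitted 6 group means to all 18 arrays, with 12 residual and 4.20 prior degrees of freedom. Benjamini-Hochberg adjustment of its two-sided p-values ran over 16111 genes in each of 11 comparisons, and a gene was called at an adjusted p under 0.05. The number of arrays limits the precision. Alternatives were 2 normalizations, 2 filters, the compared groups alone, the replicate letter as a block, trend and robust settings, the mean of a gene's rows, and leaving out arrays.

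Named genes were the called genes, the 3 highest and 3 lowest log2 fold changes per comparison, the 5 largest and 5 smallest residual SDs, RPS6, paralogue pairs, genes not tested and called genes of the lists; genes named outside this rule come from counts or notes on a named gene and were chosen after their values were seen. The genes and lists were chosen with earlier results of these data known. The sources used here give no hybridisation days.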

Additional observations from a re-analysis of the deposited data

Results flagged for a closer look

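The rows that carry several symbols enter none of the gene comparisons. Of the 38 with a ribosomal protein symbol, 4 were higher than in mock at 60 min of EcN flagellin (limma, adjusted p under 0.05). Over the 1372 rows with several symbols tested, 3.86% were called in this comparison. The row of RPS20 with SNORD54 had a log2 fold change of 0.59, standing at 5.01, 4.77 and 4.75 in mock and 5.42, 5.42 and 5.48 with EcN flagellin. The row of RPL17 with C18orf32 and the readthrough gene RPL17-C18orf32 had 0.56, from 7.38, 7.55 and 7.74 to 8.22, 8.04 and 8.09. A row of RPL21 with pseudogenes and small nucleolar RNAs had 0.48, from 8.70, 9.01 and 9.13 to 9.64, 9.46 and 9.21. Other rows that carry RPL21 ran from -0.61 ± 0.37 to 0.51 ± 0.14, some lower and some higher, and were not called. The row of RPS3A with SNORD73A had 0.43, from 6.41, 6.62 and 6.60 to 7.21, 6.90 and 6.82. In all 4 called rows the EcN arrays lay above all mock arrays, which adds no support because the rows were called from these same values. Which of the joined genes gives the signal was not tested.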

How the results depend on the processing

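The calls rest on few arrays. For the fits that leave out arrays or change the filter or settings, here and above, the share of all genes called is not given. Whether these counts moved with those of all genes is therefore not shown. Over the fits that leave out 1 array, the count of called genes ran from 0 to 6 for EcN over mock at 60 min (5 with all arrays), from 0 to 3 for ST at 60 min (2), from 0 to 3 for EcN at 120 min, from 0 to 2 for ST at 120 min, and from 0 to 1 for mock over time and for the change of the EcN effect (each 0 with all arrays). For EcN at 60 min it was 2 with no filter, 2 with the compared groups alone, 0 without the C arrays and 2 without these and mock 120 min A. For ST at 60 min these gave 1, 0, 0 and 0, and the stricter filter and the trend and robust settings gave 4 each. For EcN at 120 min the trend and robust settings gave 2, and the fit without the C arrays 1. Both normalizations and the mean of a gene's rows kept each count within 1.5 times. Over all genes, EcN at 60 min had 523 higher and 493 lower with each array centred, and 437 and 424 with quantile normalization. The main fit had 496 and 543. For ST at 60 min these were 354 and 472, 352 and 391, and 360 and 488.

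Arrays that shared a replicate letter did not correlate throughout: 10 of 45 same-letter pairs correlated above 0.1 (range -0.237 to 0.273). Of 18 arrays, 7 correlated best with an array of their own letter, a count not set against the one that unpaired arrays would give. Same-letter pairs of flagellin groups all lay above 0, from 0.014 for letter A to 0.273 for letter C. Pairs that held a mock array ran from -0.237 to 0.112. Whether the letters mark a batch was not tested. With the replicate block, 4 genes were called for EcN and 1 for ST at 60 min.

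Some small differences changed sign. Leaving out 1 array, RPS6 ran from -0.0249 to 0.175 for EcN at 120 min and from -0.0450 to 0.0376 for ST over EcN at 60 min, and RPS7 from -0.262 to 0.0623 in mock over time. In mock over time RPS6 was -0.00205 without the C arrays and -0.117 without these and mock 120 min A, where RPS25 was -0.0747. For the change of the ST effect RPL7 was -0.00593 and RPL35A -0.00255 without the C arrays, and RPS6 0.0190 without these and mock 120 min A. Fewer arrays entered these fits; other causes were not tested.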
